A study of Populus tomentosa with 15 samples.

Results

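Peroxide treatment within the *PtomtAPX*-overexpression line of *Populus tomentosa* was analysed: 6 of the 15 RNA-seq libraries of the series, 3 of *OX*-H cells and 3 of *OX* cells. *OX* cells overexpressed *PtomtAPX* (written *PtomitAPX* in the sample labels), the mitochondrial ascorbate peroxidase (APX) of this poplar, from the 35S promoter, which is active in most plant cells. *OX*-H cells were the same line given 10 mM H2O2 for 3 h, and *OX* cells were left untreated. Both were suspension cells, which grow dispersed in liquid medium, were kept in the dark and were collected 5 days after subculture. The study grew the overexpressing cells with the cytokinin 6-BA, which they needed in the medium, and does not state which of several overexpressing lines the libraries came from. The other 9 libraries were 3 of *anti-3*-A cells (a *PtomtAPX*-antisense line given 1 mM ascorbate for 3 h), 3 of untreated *anti-3* cells and 3 of untreated wild-type (WT) cells. Mock-treated *OX* cells and WT cells given H2O2 are not among the libraries used here, so H2O2 cannot be told apart from the handling that went with it. The comparison asks which transcripts of the overexpressing cells changed within hours of adding back the compound that the overexpressed enzyme removes.

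Hydrogen peroxide is formed in mitochondria, plastids and peroxisomes, and APX reduces it to water with ascorbate as the electron donor, in a cycle that regenerates ascorbate with glutathione. It is also a signal, and plant cells commonly answer a change in redox state through glutathione transferases, thioredoxins and glutaredoxins, chaperones and the alternative oxidase of the mitochondrial membrane. Class III peroxidases of the apoplast use H2O2 too, in stiffening the cell wall, where xyloglucan transferases cut and rejoin wall polymers as cells grow.

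The deposited table holds an FPKM value (fragments scaled by gene length and by the library's mapped total) for each of 42635 features and each library, and whole reads were worked back from the steps between low values. The totals were 15618191 to 17889817 reads in *OX*-H and 17509951 to 19349363 reads in *OX* libraries. Genes were tested where 3 or more of the 6 libraries reached 1 FPKM, and over these 23037 genes log2(FPKM + 1) values correlated at 0.992 to 0.994 between replicates and at 0.859 to 0.875 between an *OX*-H and an *OX* library, so that treated and untreated libraries were further apart than replicates were. No source says that the 3 libraries of a group came from separate cultures, and p-values then measure only the spread between these libraries. No culture or sequencing batch is given. The tissue was bulk, so fewer cells of a kind and less RNA per cell cannot be told apart, and the level of *PtomtAPX* itself was not analysed here, since the identifiers used here are not paired with that name.

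Peroxide lowered more genes than it raised, and lowered them further. Fold changes were tested by limma on log2(FPKM + 1), and a differentially expressed gene (DEG) had a Benjamini-Hochberg adjusted p below 0.001 and a log2 fold change above 1.5 or below −1.5. Of 23037 genes, 2009 were DEGs (8.72% of genes tested), with 732 raised (3.18%) and 1277 lowered (5.54%) in *OX*-H cells relative to *OX* cells. The median log2 fold change was −2.18 among lowered DEGs and 1.79 among raised DEGs, and 310 lowered DEGs lay below −3 whereas 11 raised DEGs lay above 3. All 2009 DEGs had *OX*-H and *OX* libraries that did not overlap, as did 76.4% of all genes tested. The median SE of a DEG's log2 fold change was 0.11. Below the fold change threshold the response was broad and tilted the other way, with 75.0% of genes past a limma adjusted p of 0.05, 10376 higher (45.0%) and 6899 lower (29.9%) in *OX*-H cells, and the median gene at 0.15.

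**Figure D1:**
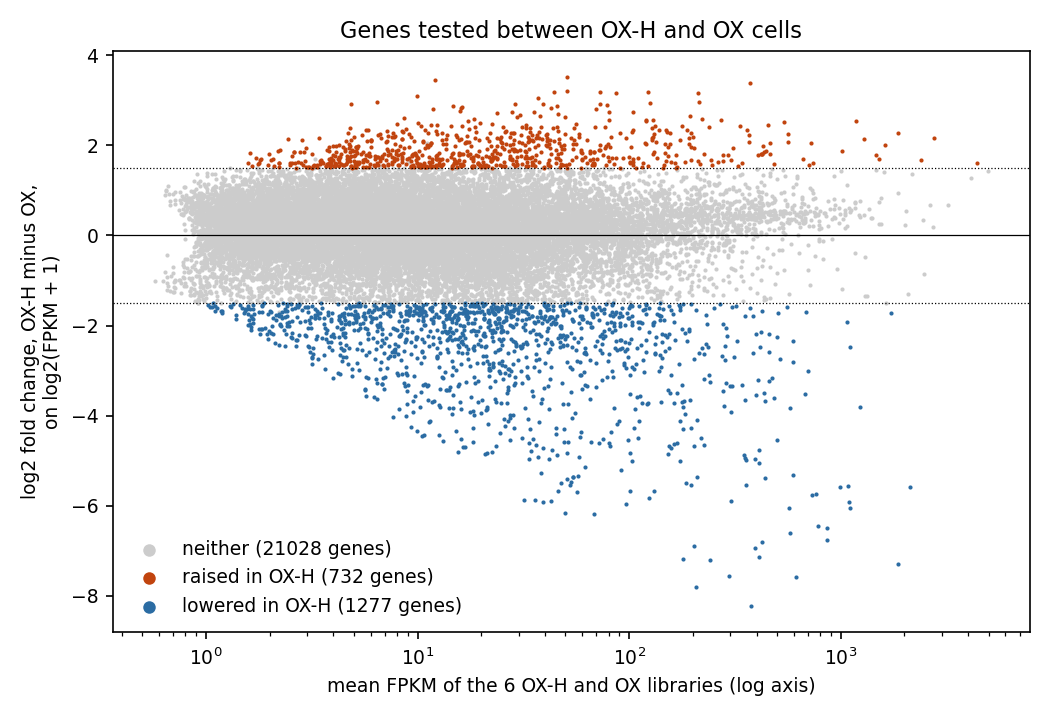
Log2 fold change (*OX*-H minus *OX*, on log2(FPKM + 1)) of each of the 23037 genes tested, plotted against its mean FPKM over the 6 libraries on a log axis. Orange points are the 732 raised DEGs, blue points the 1277 lowered DEGs and grey points the other 21028 genes. The dotted lines mark the fold change threshold, and lowered genes reach −8.22 where raised genes reach 3.51.

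The lowered DEGs took 2.65% to 2.68% of all reads in *OX*-H libraries, against 18.4% to 20.1% in *OX* and 4.61% to 4.99% in WT libraries. The raised DEGs took 10.1% to 10.3% of the reads in *OX*-H libraries, against 2.46% to 2.77% in *OX* and 7.12% to 7.52% in WT. These shares describe genes chosen by the same contrast. Of the lowered DEGs, 188 were below 1 FPKM in all 3 *OX*-H libraries, with means of up to 99.5 FPKM in *OX* cells. Only 27 raised DEGs were below 1 FPKM in all 3 *OX* libraries, and their highest *OX*-H mean was 9.33 FPKM. Among the 65 genes with a mean above 1000 FPKM, 10 were raised and 9 were lowered.

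Both deepest falls were of genes with no annotation in the sources used here. POPTR_0013s01580 had 1.07, 1.5 and 2.05 FPKM in *OX*-H cells, against 694, 693 and 871 FPKM in *OX* cells, a log2 fold change of −8.22 (SE 0.13, limma adjusted p = 4.7e-17). POPTR_0012s02930 had 1.00, 0.459 and 1.09 FPKM in *OX*-H cells, against 365, 374 and 502 FPKM in *OX* cells (log2 fold change −7.81, SE 0.19, limma adjusted p = 7.3e-15). Their WT means were 3.79 and 1.81 FPKM, so that *OX*-H cells held less of both than WT cells. POPTR_0001s05520 showed the largest rise, with 88.7, 92.1 and 102 FPKM in *OX*-H cells, against 7.79, 7.53 and 6.78 FPKM in *OX* cells (log2 fold change 3.51, SE 0.08, limma adjusted p = 2.0e-15). POPTR_0002s04200 followed with 23.6, 20.3 and 25.3 FPKM in *OX*-H cells, against 1.31, 0.850 and 1.54 FPKM in *OX* cells (log2 fold change 3.44, SE 0.17, limma adjusted p = 3.1e-11).

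Gene functions come from 30 lists of genes that the supplementary annotation of the study groups by Gene Ontology term, cut short there to about 24 identifiers a cell. They hold 768 genes, of which 602 were tested, 52 raised and 182 lowered, and 166 were not tested. Of the tested members, 76 passed the filter through 1 group only. The 450 genes that the annotation names on the sheets of the *anti-3* line were chosen without *OX* or *OX*-H libraries, and 365 of them were tested. The study made Gene Ontology analyses on genes that differed between *anti-3* and WT cells and on genes that differed between *OX* and WT cells. A list thus does not stand for all genes of its term, and shares over all genes are given for scale, not as a test. On the first principal component *OX* and *anti-3* libraries lay at 75.8 to 86.5 and *OX*-H and WT libraries at −56.8 to −51.9. The 318 genes named on the sheets of the *OX* line only were chosen on the libraries compared here, and their counts are not independent evidence. Counts below are of *anti-3*-sheet members unless stated. Those tested through 1 group only are low in the other group by that choice. They included 8 of 43 UDP-glycosyltransferases, 7 of 25 redox genes, 7 of 38 calcium genes and 5 of 15 pollen-recognition genes. Also among them were 4 of 13 wounding genes, 4 of 16 kinases, 3 of 19 glutathione transferases and 2 of 6 trehalose genes. The same held for 5 of 38 transcription factors, 5 of 7 ATP-driven transporters, 3 of 20 phosphatases and 2 of 20 ubiquitin transferases. Auxin response, DNA replication and the other hormone responses had 1 such gene each. Of the genes named below, POPTR_0256s00210, POPTR_0466s00210, POPTR_0001s14650, POPTR_0005s21690 and POPTR_0015s14810 passed through *OX* only. POPTR_0006s06550 and POPTR_0013s14030 passed through *OX*-H only. Of the 22 lists with at least 5 tested members on those sheets, 14 had 0 raised members by limma. Of the 256 genes tested in these lists, 9 were higher at an unadjusted p below 0.05, as were 46.0% of all genes tested, and voom on the reads raised 2. In 7 lists 0 members were lowered by limma. Of the 62 genes tested there, 1 was lower at an unadjusted p below 0.05, as were 30.7% of all genes tested, and voom lowered 0. Both groups of lists were formed by their 0 counts in this same contrast. The low numbers of genes that moved the other way were thus partly fixed by that choice and are no evidence.

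**Figure D2:**
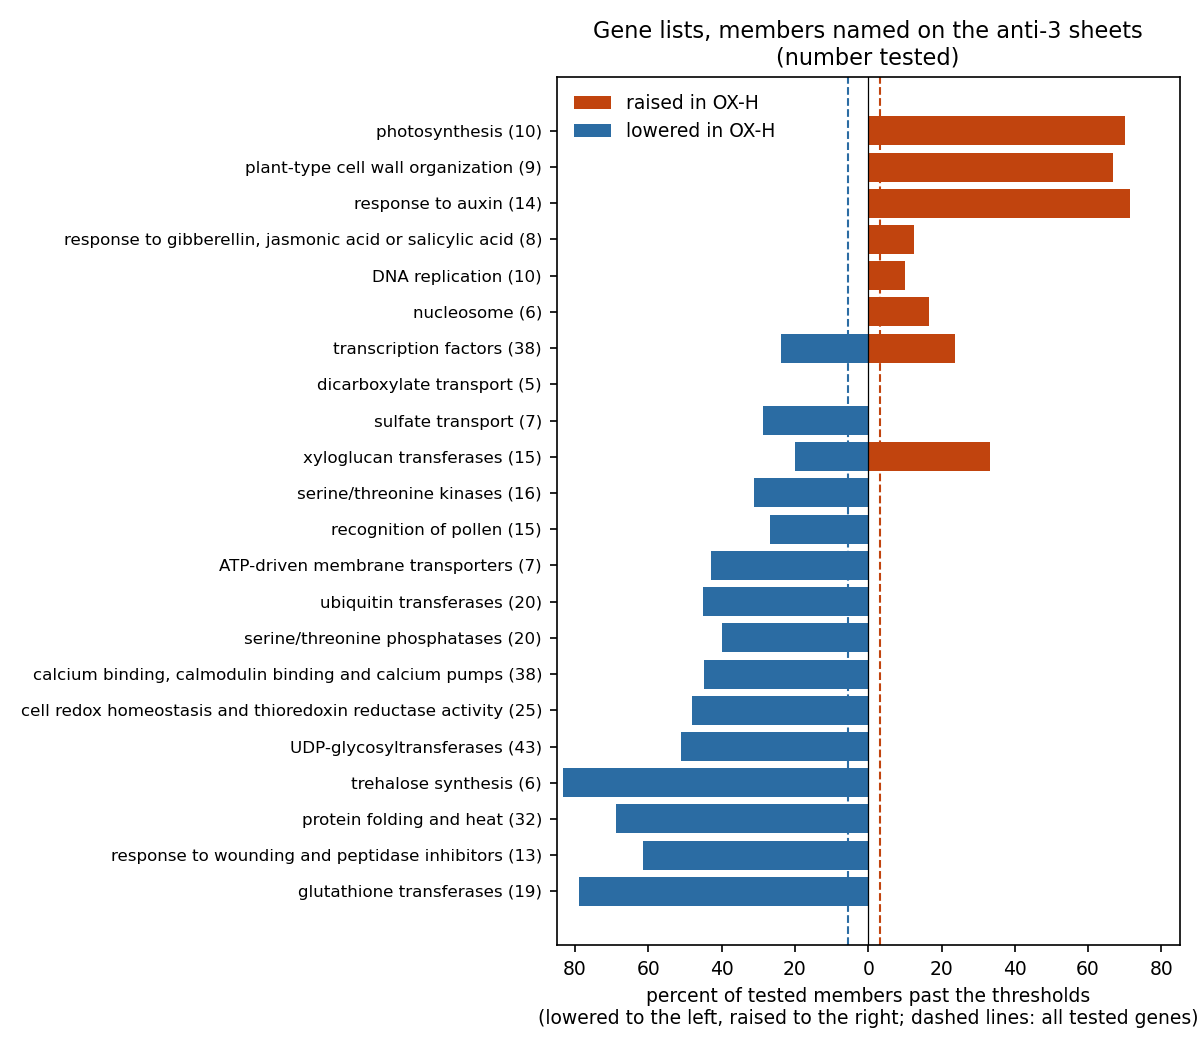
Percentage of tested members of each list that were lowered (blue, to the left) or raised (orange, to the right) in *OX*-H relative to *OX*, for members named on the *anti-3* sheets, with the number tested in brackets. Dashed lines mark the shares among all genes tested, 5.54% lowered and 3.18% raised. Trehalose synthesis and glutathione transferases reach furthest to the left, and auxin response and photosynthesis furthest to the right.

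Most listed glutathione transferases, which join glutathione to electrophiles and to oxidized lipids, fell after peroxide. Of 19 members tested, 15 were lowered and 0 raised, against 5.54% and 3.18% of all genes, with a median log2 fold change of −3.06 and a highest value of −0.45. The summed level of all 24 members was 685, 706 and 711 FPKM in *OX*-H cells, against 4160, 4064 and 4224 FPKM in *OX* cells and 1160 to 1284 FPKM in WT cells. These 24 listed genes, which need not be the whole family, thus held less transcript in *OX*-H cells than in either untreated culture. POPTR_0256s00210 had 0.174, 0.560 and 0.228 FPKM in *OX*-H cells, which rest on 12 reads in all, against 77.1, 76.6 and 81 FPKM in *OX* cells (log2 fold change −5.92, SE 0.11, limma adjusted p = 2.1e-16). POPTR_0001s42820 had 2.06, 1.36 and 2.03 FPKM in *OX*-H cells, against 101, 106 and 131 FPKM in *OX* cells (log2 fold change −5.34, SE 0.11, limma adjusted p = 8.8e-16). In WT cells they averaged 8.39 and 9.82 FPKM, again above *OX*-H cells. Members of such families can share sequence, and how reads that map to several genes were counted is not given in the sources used here, so that levels of single members are less certain than their sum.

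Of 25 genes of cell redox homeostasis, the term that holds thioredoxins and glutaredoxins, 12 were lowered, 0 were raised and 13 did not pass, against 5.54% of all genes lowered, and the list median was −1.49. POPTR_0004s01220 had 20.3, 22.9 and 20.7 FPKM in *OX*-H cells, against 324, 334 and 375 FPKM in *OX* cells (log2 fold change −3.95, SE 0.08, limma adjusted p = 6.5e-16). POPTR_0004s01190 had 14.0, 12.2 and 12.6 FPKM in *OX*-H cells, against 192, 191 and 220 FPKM in *OX* cells (log2 fold change −3.86, SE 0.07, limma adjusted p = 2.9e-16). The *OX*-H libraries were again below all WT libraries, which averaged 35.2 and 19.7 FPKM. Summed over all 35 members the level was 1470 to 1499 FPKM in *OX*-H, 4645 to 4711 FPKM in *OX* and 1150 to 1218 FPKM in WT libraries.

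Peroxidases moved both ways. Nearly all of these genes were named on the *OX* sheets only, so that their counts describe libraries on which they were chosen. Of 33 tested, 7 were raised and 4 lowered, against 3.18% and 5.54% of all genes, with a median of 0.52. POPTR_0007s05100, listed under the breakdown of hydrogen peroxide, had 26.1, 25.6 and 28.3 FPKM in *OX*-H cells, against 2.25, 3.18 and 3.01 FPKM in *OX* cells (log2 fold change 2.87, SE 0.10, limma adjusted p = 5.0e-13). POPTR_0005s21740, under the same term and under cell wall organization, was the more abundant, with 619, 598 and 588 FPKM in *OX*-H cells, against 134, 122 and 101 FPKM in *OX* cells (log2 fold change 2.34, SE 0.09, limma adjusted p = 2.9e-12). POPTR_0016s14030, singled out after its values were seen, reached 686 ± 14.9 FPKM in *OX*-H and 172 ± 9.25 FPKM in *OX* cells (SD, n = 3 each). Each of these had WT means above its *OX*-H mean, at 52.4, 663 and 877 FPKM. All 4 lowered members were listed under peroxidase activity, as were the raised POPTR_0013s06300 (log2 fold change 1.66) and POPTR_1748s00200 (1.53). POPTR_0466s00210 had 0.888, 0.515 and 0.245 FPKM in *OX*-H cells, against 20.5, 17.0 and 18.0 FPKM in *OX* cells (log2 fold change −3.67, SE 0.16, limma adjusted p = 9.8e-12). POPTR_0466s00200 had 6.24, 4.8 and 4.1 FPKM in *OX*-H cells, against 59.4, 69.5 and 63.6 FPKM in *OX* cells (log2 fold change −3.44, SE 0.14, limma adjusted p = 4.5e-12). The other lowered members, named after their values were seen, were POPTR_0001s09270 (log2 fold change −2.18) and POPTR_0004s07630 (−1.59), and the annotation lists POPTR_0004s07630 as a glutathione transferase as well.

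Some mitochondrial genes fell as well, next to 5.54% of all genes tested that were lowered. All genes of these lists were named on the *OX* sheets only, so that their counts describe libraries on which they were chosen. Alternative oxidase passes electrons from ubiquinol straight to oxygen and so keeps the respiratory chain from over-reduction, and 2 of its 3 genes were lowered. POPTR_0003s10290 had 1.38, 1.97 and 1.83 FPKM in *OX*-H cells, against 49.3, 47.4 and 53.8 FPKM in *OX* cells (log2 fold change −4.23, SE 0.18, limma adjusted p = 5.3e-12). POPTR_0015s02150 had 7.84, 7.44 and 8.62 FPKM in *OX*-H cells, against 37.6, 36.4 and 42.0 FPKM in *OX* cells (log2 fold change −2.15, SE 0.07, limma adjusted p = 2.8e-13). Both were below their WT means of 4.44 and 12.5 FPKM. Of 7 genes of iron-sulfur cluster assembly, which builds cofactors of the respiratory complexes, 3 were lowered and the highest value was −1.06. POPTR_0022s00770 fell to 18.1, 16.6 and 16.0 FPKM in *OX*-H cells, against 103, 107 and 111 FPKM in *OX* cells (log2 fold change −2.60, SE 0.09). POPTR_0005s22080 had 44.9 ± 0.902 FPKM in *OX*-H and 150 ± 6.41 FPKM in *OX* cells (SD, n = 3 each), and POPTR_0008s02130, the other lowered gene, had a log2 fold change of −1.60. The 3 genes of the step from cytochrome c to oxygen lay between −1.25 and −0.69. They were lower at an unadjusted p below 0.05, as were 30.7% of all genes, but 0 passed the fold change threshold by limma or by voom. None of the 4 NADH dehydrogenase genes reached the filter, and their summed level was 0.342 to 0.760 FPKM in *OX*-H, 0.922 to 1.40 FPKM in *OX* and 6.14 to 27.5 FPKM in WT libraries.

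Chaperones and heat-response genes, which hold proteins in a folded state, were lowered in the main. Of 32 members tested, 22 were lowered and 0 raised, against 5.54% and 3.18% of all genes. Every one had a negative log2 fold change, and the median was −1.96. POPTR_0013s09600, a gene of the response to heat, had 3.34, 2.27 and 1.21 FPKM in *OX*-H cells, against 571, 545 and 661 FPKM in *OX* cells (log2 fold change −7.55, SE 0.17, limma adjusted p = 3.1e-15). POPTR_0004s07190, whose product binds unfolded proteins, had 7.27, 6.84 and 7.02 FPKM in *OX*-H cells, against 332, 347 and 411 FPKM in *OX* cells (log2 fold change −5.50, SE 0.07, limma adjusted p = 9.2e-18). WT cells averaged 10.5 and 17.2 FPKM, between the *OX*-H and the *OX* level in each case. The sum over all 39 members was 3605 to 3826 FPKM in *OX*-H, 12750 to 13467 FPKM in *OX* and 2814 to 2883 FPKM in WT libraries, so that the group as a whole stayed above WT although its deepest members went below.

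UDP-glycosyltransferases attach sugars to flavonoids, hormones and foreign compounds. Of 43 listed members tested, 22 were lowered and 0 raised, against 5.54% and 3.18% of all genes, with a median of −1.76 and a highest value of 0.86. The list does not hold POPTR_0009s15190 (log2 fold change 1.91) and POPTR_0001s05400 (1.54), glycosyltransferases that the study names and that were raised. POPTR_0014s11210 had 1.29, 1.26 and 1.5 FPKM in *OX*-H cells, against 90.7, 86.8 and 123 FPKM in *OX* cells (log2 fold change −5.41, SE 0.14, limma adjusted p = 9.4e-15), and its WT mean was 1.26 FPKM. POPTR_0007s00760, listed as a quercetin glucosyltransferase, had 2.99, 4.04 and 4.67 FPKM in *OX*-H cells, against 181, 163 and 193 FPKM in *OX* cells (log2 fold change −5.21, SE 0.14, limma adjusted p = 2.1e-14). *OX*-H libraries overlapped WT in the first but lay far under it in the second, which had 60.8, 80.6 and 83.5 FPKM in WT cells. The 25 tested members named on the *OX* sheets only had 5 lowered and a median of −0.17.

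**Figure D3:**
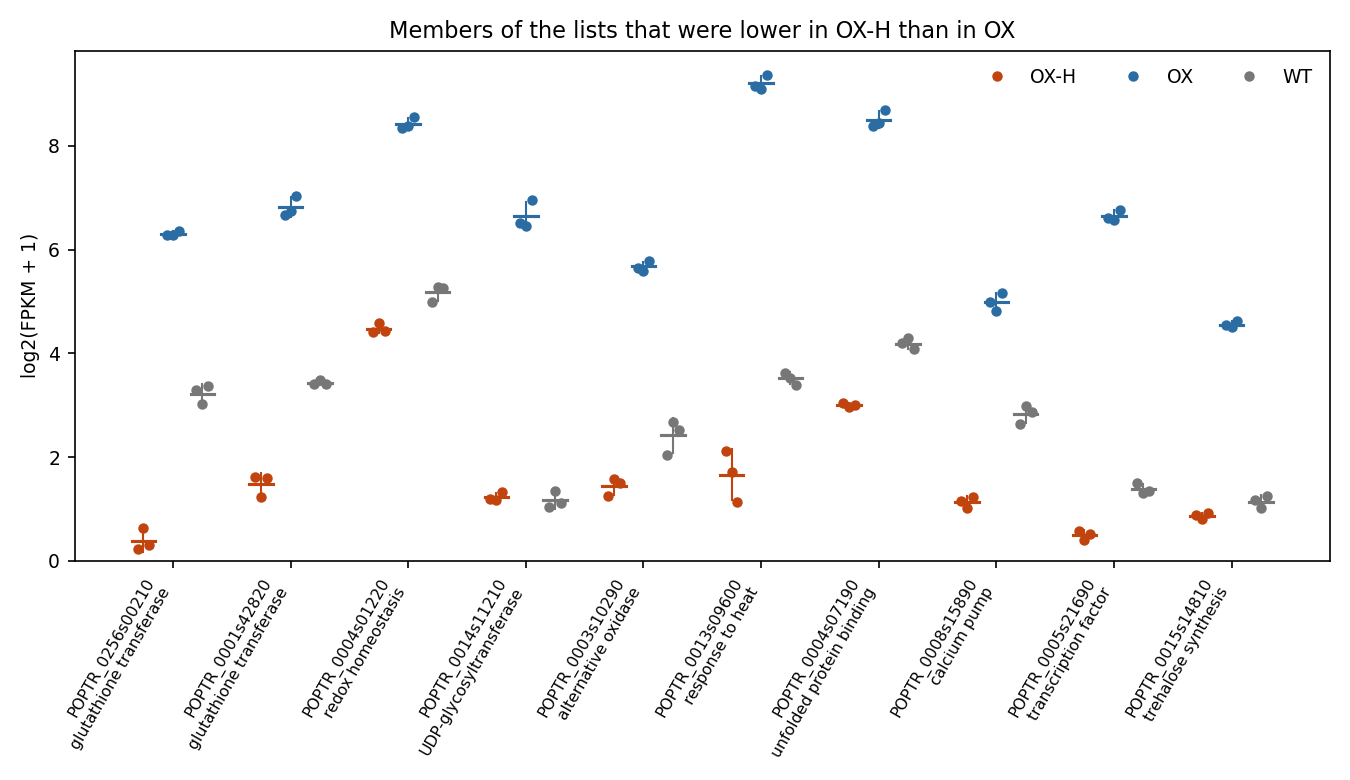
log2(FPKM + 1) of 10 genes lowered in *OX*-H relative to *OX*. Points are the 3 libraries of *OX*-H (orange), *OX* (blue) and WT (grey), horizontal bars their means and vertical bars their SDs. All *OX*-H points lie below all *OX* points of the same gene, and for every gene but POPTR_0014s11210 they also lie below all WT points.

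Of 38 calcium-binding proteins, calmodulin-binding proteins and calcium pumps, 17 were lowered, 0 were raised and 21 did not pass, against 5.54% of all genes lowered. Their median log2 fold change was −1.46 and the highest −0.09. POPTR_0013s14730, a calcium-binding protein, had 37.2, 37.8 and 34.8 FPKM in *OX*-H cells, against 537, 542 and 625 FPKM in *OX* cells (log2 fold change −3.92, SE 0.10, limma adjusted p = 9.6e-15). POPTR_0008s15890, a calcium-transporting ATPase, had 1.24, 1.03 and 1.34 FPKM in *OX*-H cells, against 30.9, 27.1 and 34.6 FPKM in *OX* cells (log2 fold change −3.85, SE 0.11, limma adjusted p = 7.9e-14). Both went below all WT libraries, whose means were 58.0 and 6.15 FPKM. Of 20 serine/threonine phosphatases 8 were lowered, 0 were raised and 12 did not pass, and the lowered ones were led by POPTR_0010s16130 with 3.66 ± 0.372 FPKM in *OX*-H and 42.7 ± 2.79 FPKM in *OX* cells and by POPTR_0002s19100 with 8.71 ± 0.255 FPKM in *OX*-H and 41.8 ± 8.22 FPKM in *OX* cells (SD, n = 3 each).

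Kinase genes were lowered in part, next to 5.54% of all genes tested. Of 16 serine/threonine kinases 5 were lowered, and of 15 genes filed under recognition of pollen, a term that holds receptor-like kinases of the S-locus type, 4 were lowered. POPTR_0011s14530 had 3.03, 2.07 and 2.17 FPKM in *OX*-H cells, against 33.6, 27.2 and 33.7 FPKM in *OX* cells (log2 fold change −3.25, SE 0.13, limma adjusted p = 4.3e-12). POPTR_0010s25570 had 11.1 ± 1.23 FPKM in *OX*-H and 41.0 ± 0.0621 FPKM in *OX* cells (SD, n = 3 each). POPTR_0013s12000, a member of both lists, had 2.78 ± 0.435 FPKM in *OX*-H and 11.7 ± 0.627 FPKM in *OX* cells, and POPTR_0011s12930 had 6.99 ± 0.670 FPKM in *OX*-H and 25.5 ± 1.91 FPKM in *OX* cells. The remaining DEGs of these lists, named after their values were seen, were POPTR_0011s12870 (log2 fold change −1.69), POPTR_0011s12950 (−1.51) and, just past the threshold, POPTR_0019s14860. Voom lowered 11 of the pollen-recognition genes rather than 4, and the list median of −1.27 lay inside the fold change threshold. Ubiquitin transferases, which mark proteins for degradation, had 9 of 20 members lowered, against 5.54% of all genes. POPTR_0008s13700 had 1.15, 0.984 and 0.836 FPKM in *OX*-H cells, against 27.1, 25.3 and 29.4 FPKM in *OX* cells (log2 fold change −3.83, SE 0.13, limma adjusted p = 3.0e-13). POPTR_0005s11530 fell to 2.51 ± 0.320 FPKM in *OX*-H cells, against 22.2 ± 0.575 FPKM in *OX* cells.

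Defence, transport and trehalose genes also had lowered members, next to 5.54% of all genes tested. Among 13 genes of the wounding response and peptidase inhibitors, which block the proteases of insects and pathogens, 8 were lowered. Of these 13 genes 4 passed the filter through 1 group only. POPTR_0019s02560 had 4.21, 1.48 and 2.27 FPKM in *OX*-H cells, against 56.4, 47.7 and 57.7 FPKM in *OX* cells (log2 fold change −3.97, SE 0.20, limma adjusted p = 3.8e-11), and POPTR_0010s08600 had 2.22 ± 1.19 FPKM in *OX*-H cells, on 25 reads, and 29.2 ± 0.762 FPKM in *OX* cells. Of 7 ATP-driven membrane transporters 3 were lowered: POPTR_0003s18140 (log2 fold change −2.98), POPTR_0001s14650 (−2.16) and POPTR_0015s07080 (−1.64). Of these 7 genes 5 passed the filter through 1 group only. Trehalose synthesis, which makes a sugar whose phosphate signals carbon status, had 5 of 6 genes lowered and the deepest fall in POPTR_0015s14810, with 0.842, 0.745 and 0.892 FPKM in *OX*-H cells, against 22.2, 21.7 and 23.6 FPKM in *OX* cells (log2 fold change −3.69, SE 0.12, limma adjusted p = 1.5e-13). POPTR_0012s14700 had 1.12 ± 0.218 FPKM in *OX*-H and 16.5 ± 1.03 FPKM in *OX* cells (SD, n = 3 each), below its WT mean of 5.71 FPKM. The others were POPTR_0873s00200 (−2.08), POPTR_0001s00270 (−1.80) and POPTR_0003s11190 (−1.68).

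Anion transporters did not move as a group. Of 7 sulfate transport genes, 2 were lowered, POPTR_0002s09310 (log2 fold change −2.21) and POPTR_0010s21820 (−1.83), and 3 of the others were higher at an unadjusted p below 0.05, so that the list median was 0.16, next to 0.15 over all genes. It ran from −0.26 to 0.28 over the other settings tried. Of 5 dicarboxylate transport genes 0 were DEGs by limma or voom, with 3 higher and 1 lower at an unadjusted p below 0.05 and values from −0.26 to 0.69.

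Transcription factors moved both ways in equal number. Of 38 sequence-specific factors 9 were raised and 9 lowered, each above the 3.18% and 5.54% of all genes. POPTR_0005s21690 was nearly silent after peroxide, with 0.497, 0.316 and 0.434 FPKM in *OX*-H cells, against 96.0, 94.4 and 108 FPKM in *OX* cells (log2 fold change −6.15, SE 0.10, limma adjusted p = 1.1e-16). It passed the filter through *OX* only, and 5 of the 38 factors passed through 1 group only. POPTR_0005s23640 had 3.15, 2.42 and 3.20 FPKM in *OX*-H cells, against 30.5, 29.3 and 41.9 FPKM in *OX* cells (log2 fold change −3.14, SE 0.13, limma adjusted p = 5.0e-12). The raised factors included the very abundant POPTR_0003s15030, with 944, 934 and 916 FPKM in *OX*-H cells, against 220, 225 and 151 FPKM in *OX* cells (log2 fold change 2.24, SE 0.11, limma adjusted p = 3.0e-11). At 149, 148 and 145 FPKM, WT cells held less of it than either culture of the line. POPTR_0006s20820 rose as well, to 24.8 ± 2.96 FPKM in *OX*-H cells, against 3.91 ± 1.25 FPKM in *OX* cells (SD, n = 3 each).

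Most auxin-response genes rose. Auxin drives cell expansion and division, and its early targets include the SAUR genes and the Aux/IAA repressors. Of 14 members, 10 were raised and 0 lowered, against 3.18% and 5.54% of all genes. All 14 were higher at an unadjusted p below 0.05, next to 46.0% of all genes. The median log2 fold change was 1.71 and the lowest value 0.35. POPTR_0013s03860 had 380, 397 and 366 FPKM in *OX*-H cells, against 50.7, 50.6 and 44.2 FPKM in *OX* cells (log2 fold change 2.95, SE 0.06, limma adjusted p = 4.6e-16). POPTR_0006s06550 had 10.1, 9.45 and 8.40 FPKM in *OX*-H cells, against 0.422, 0.466 and 0.241 FPKM in *OX* cells, on 18 reads (log2 fold change 2.91, SE 0.13, limma adjusted p = 1.5e-11). This second gene passed the filter through *OX*-H only. The rise passed the WT mean of 279 FPKM in the first and stopped short of 28.1 FPKM in the second. Also raised, and named after their values were seen, were POPTR_0006s03540 (log2 fold change 2.18) and POPTR_0010s12320 (1.54), both listed under auxin efflux transport. Over all 23 members the summed level was 648 to 678 FPKM in *OX*-H, 118 to 130 FPKM in *OX* and 822 to 862 FPKM in WT libraries.

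In 3 further lists, of other hormones and of the cell cycle, 1 member each was raised, next to 3.18% of all genes tested. Of 8 genes of the gibberellin, jasmonic acid and salicylic acid responses, all were higher at an unadjusted p below 0.05, next to 46.0% of all genes, and the raised one was POPTR_0005s14640 of the salicylic acid response, with 198, 234 and 216 FPKM in *OX*-H cells, against 46.8, 50 and 38.4 FPKM in *OX* cells (log2 fold change 2.24, SE 0.12, limma adjusted p = 9.1e-11). DNA replication had 1 of 10 members raised although all 10 were higher at an unadjusted p below 0.05, with a median of 1.05. That member, POPTR_0001s12380, had 14.9, 12.1 and 14.7 FPKM in *OX*-H cells, against 3.11, 2.94 and 3.43 FPKM in *OX* cells (log2 fold change 1.84, SE 0.08, limma adjusted p = 7.9e-12), next to 15.8 FPKM in WT cells. Of 6 nucleosome genes, which encode histones, 4 were higher at an unadjusted p below 0.05, the lowest value was −0.04, and POPTR_0005s11860 was raised, with 80.4, 87.4 and 81.1 FPKM in *OX*-H cells, against 17.8, 15.1 and 16.9 FPKM in *OX* cells (log2 fold change 2.25, SE 0.06, limma adjusted p = 4.2e-14). Histone transcripts stayed short of WT: the sum over all 22 nucleosome genes was 1407 to 1453 FPKM in *OX*-H, 652 to 658 FPKM in *OX* and 2895 to 3095 FPKM in WT libraries. POPTR_0007s13930, a nucleosome gene named on the *OX* sheets only, had 40.6 ± 2.2 FPKM in *OX*-H, 8.84 ± 0.594 FPKM in *OX* and 143 ± 3.01 FPKM in WT cells (SD, n = 3 each).

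Most genes of the cell wall list rose. The term plant-type cell wall organization holds extensins and the wall-loosening expansins. Of 9 genes listed under it and tested, 6 were raised and 0 lowered. All genes tested had 3.18% raised and 5.54% lowered, and the list median was 1.82. POPTR_0015s00590 had 237, 261 and 254 FPKM in *OX*-H cells, against 53.1, 49.2 and 44.6 FPKM in *OX* cells (log2 fold change 2.33, SE 0.09, limma adjusted p = 1.0e-12), above the 70.6 FPKM of WT cells. POPTR_0008s08790 had 42.9, 44.5 and 45.2 FPKM in *OX*-H cells, against 7.75, 7.52 and 9.12 FPKM in *OX* cells (log2 fold change 2.31, SE 0.10, limma adjusted p = 1.0e-11).

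Xyloglucan transferases went both ways, with 5 raised and 3 lowered of 15, against 3.18% and 5.54% of all genes. POPTR_0013s14860 was the most abundant raised member, with 902, 917 and 949 FPKM in *OX*-H cells, against 159, 149 and 172 FPKM in *OX* cells (log2 fold change 2.53, SE 0.08, limma adjusted p = 8.6e-14). POPTR_0006s07060 had 142, 146 and 127 FPKM in *OX*-H cells, against 24.6, 18.6 and 12.2 FPKM in *OX* cells (log2 fold change 2.89, SE 0.21, limma adjusted p = 3.8e-09). Both exceeded the WT means of 286 and 48.5 FPKM. POPTR_0001s01870 moved the opposite way, with 43.1, 47.0 and 46.2 FPKM in *OX*-H cells, against 162, 158 and 161 FPKM in *OX* cells (log2 fold change −1.80, SE 0.06, limma adjusted p = 5.4e-13), and POPTR_0005s22300 had 1.03 ± 0.317 FPKM in *OX*-H and 5.72 ± 0.736 FPKM in *OX* cells (SD, n = 3 each). The other DEGs were POPTR_0019s14590 (2.43), POPTR_0014s11030 (2.04), POPTR_0011s00450 (1.60) and POPTR_0018s10320 (−1.59). The median of 0.14 had no stable sign and lay between −0.12 and 0.22 over the other settings, whereas the sum over all 25 members, 2229 to 2283 FPKM in *OX*-H against 973 to 1130 FPKM in *OX* libraries, was made up mostly of the raised POPTR_0013s14860 and POPTR_0019s14590.

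Chitinases, which act on fungal walls and on plant glycoproteins, were all named on the *OX* sheets only. Of 12 tested, 4 were raised and 1 lowered, against 3.18% and 5.54% of all genes. POPTR_0009s14380 had 329, 315 and 293 FPKM in *OX*-H cells, against 87.6, 74.3 and 49.4 FPKM in *OX* cells (log2 fold change 2.17, SE 0.16, limma adjusted p = 4.0e-09). POPTR_0790s00210 had 191 ± 12.2 FPKM in *OX*-H and 46.7 ± 12.7 FPKM in *OX* cells, and the other raised members, named after their values were seen, were POPTR_0009s14420 (log2 fold change 2.03) and POPTR_0015s05980 (1.85). POPTR_0015s05990 was the lowered one, with 17.2 ± 0.579 FPKM in *OX*-H, 59.0 ± 4.98 FPKM in *OX* and 221 ± 23.6 FPKM in WT cells (SD, n = 3 each), so that peroxide took it further from the WT level. Of 12 genes of phenylpropanoid, cutin and suberin synthesis 0 were DEGs by limma, with 4 higher and 2 lower at an unadjusted p below 0.05, and voom raised 1. Of 23 RNA modification genes 4 were tested, and 0 were DEGs by limma or voom, with 4 higher at an unadjusted p below 0.05.

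Most photosynthesis genes that could be tested rose in these dark-grown cells, where they were low. Of 10 members tested, 7 were raised and 0 lowered, against 3.18% and 5.54% of all genes. The median log2 fold change was 2.07 and the lowest value 0.91. POPTR_0007s12070 had 17.1, 20.1 and 15.7 FPKM in *OX*-H cells, against 3.27, 2.76 and 1.27 FPKM in *OX* cells (log2 fold change 2.49, SE 0.21, limma adjusted p = 2.5e-08). POPTR_0010s22790, of the light-harvesting antenna, had 18.4, 22.1 and 17.1 FPKM in *OX*-H cells, against 3.09, 4.58 and 2.18 FPKM in *OX* cells (log2 fold change 2.27, SE 0.18, limma adjusted p = 1.4e-08). WT cells averaged 3.67 and 1.45 FPKM, so that *OX*-H cells stood above both untreated cultures. The most abundant, POPTR_0016s12260, was named after its values were seen, with 89.8 ± 5.50 FPKM in *OX*-H, 20.3 ± 5.36 FPKM in *OX* and 56.1 FPKM on average in WT cells. *OX* replicate 3 held the lowest value of *OX* in both genes given in full.

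**Figure D4:**
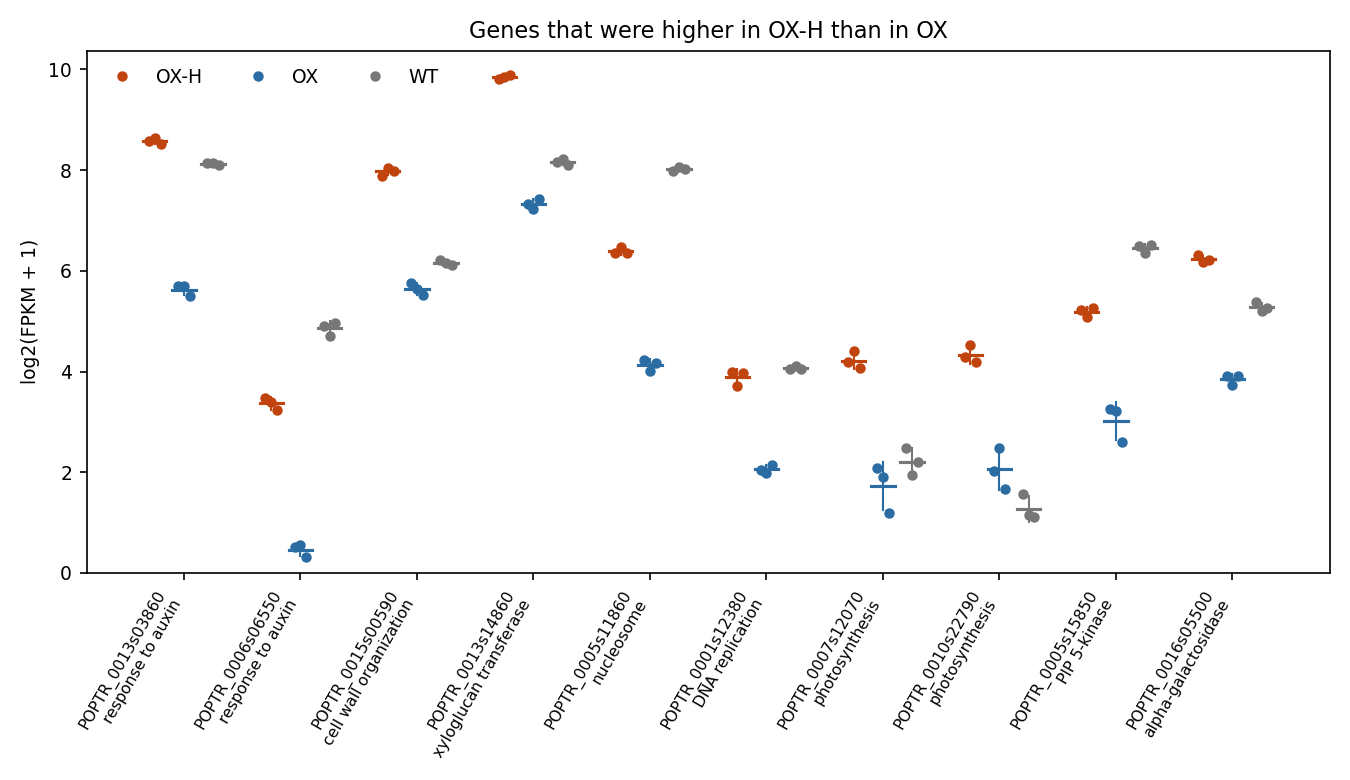
log2(FPKM + 1) of 10 genes that were higher in *OX*-H than in *OX*. Points are the 3 libraries of *OX*-H (orange), *OX* (blue) and WT (grey), horizontal bars their means and vertical bars their SDs. All *OX*-H points lie above all *OX* points of the same gene. WT lies above *OX*-H for POPTR_0006s06550, POPTR_0005s11860, POPTR_0001s12380 and POPTR_0005s15850 and below it for the other genes.

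The study names 15 genes with a role in metabolism or growth. Of the 9 it names for the *anti-3* line, 5 were raised by peroxide in the *OX* line, next to 3.18% of all genes tested. POPTR_0016s05500, an alkaline alpha-galactosidase, which frees sugar from storage oligosaccharides, had 78.5, 71.4 and 72.9 FPKM in *OX*-H cells, against 14.0, 12.3 and 14.0 FPKM in *OX* cells (log2 fold change 2.39, SE 0.12, limma adjusted p = 5.0e-11). POPTR_0005s01840, an inorganic pyrophosphatase, had 88.3, 84.3 and 89.1 FPKM in *OX*-H cells, against 25.0, 20.2 and 12.9 FPKM in *OX* cells (log2 fold change 2.16, SE 0.17, limma adjusted p = 1.4e-08). POPTR_0005s15850, a phosphatidylinositol-4-phosphate 5-kinase of lipid signalling that the study also names for the *OX* line, had 36.2, 33.1 and 37.2 FPKM in *OX*-H cells, against 8.61, 8.26 and 5.03 FPKM in *OX* cells (log2 fold change 2.17, SE 0.13, limma adjusted p = 5.0e-10). The kinase reached less than its WT level of 81.3 to 89.8 FPKM, and the first enzyme more than its WT level of 35.7 to 40.6 FPKM. The UDP-glycosyltransferases POPTR_0009s15190 (log2 fold change 1.91) and POPTR_0001s05400 (1.54) were raised too, the second with a value of 1.45 to 1.49, under the threshold, when library medians were aligned, values were quantile-normalized or the length trend was removed.

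The other 4 *anti-3* genes did not pass. POPTR_0006s02390 (log2 fold change 1.11), POPTR_0007s09470 (0.68) and POPTR_0545s00210 (0.24), a glycosyltransferase, a phosphatase family gene and a glycosyltransferase, had smaller differences. POPTR_0004s22210, which releases active cytokinin from its riboside phosphate, had 2.08, 2.51 and 3.01 FPKM in *OX*-H cells and 2.40, 1.22 and 1.92 FPKM in *OX* cells, a log2 fold change of 0.33 (SE 0.14, limma adjusted p = 0.050). Both lay far under the 64.6 to 68.1 FPKM of WT cells, so that this cytokinin gene remained low after peroxide. After ascorbate it was raised in the antisense line, with 43.8, 38.4 and 44.6 FPKM in *anti-3*-A cells, against 9.50, 6.76 and 7.27 FPKM in *anti-3* cells, and the responses differed by −1.97 (SE 0.20, limma adjusted p = 1.5e-06).

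The study names 7 genes for the *OX* line, as different between *OX* and WT cells and as back to normal in *OX*-H cells. They were thus chosen on *OX* and *OX*-H libraries, but by a comparison with WT that is unlike the one made here. Of these 7, POPTR_0005s15850 alone was a DEG between *OX*-H and *OX* under the thresholds used here. POPTR_0003s14230, a UDP-glycosyltransferase, came closest, with 23.4, 22.4 and 23.7 FPKM in *OX*-H cells, against 7.79, 7.82 and 7.67 FPKM in *OX* cells (log2 fold change 1.47, SE 0.05, limma adjusted p = 1.3e-12). With a fold change above 1.5 in place of the log2 threshold, 4 more of the 7 passed: POPTR_0003s14230, POPTR_0006s08250, POPTR_0014s08130 and POPTR_0013s14030. POPTR_0003s14230 was also a DEG with a pseudocount of 0.5 (1.52) or 0.1 (1.57) and by voom (1.58). POPTR_0006s08250, an inorganic pyrophosphatase, had 56.1 ± 1.57 FPKM in *OX*-H and 121 ± 9.36 FPKM in *OX* cells (SD, n = 3 each; −1.09 on the log2 scale). The phosphatases POPTR_0014s08130 (1.06) and POPTR_0013s14030 (0.77) and the cytokinin gene POPTR_0009s01600 (0.69) had *OX*-H and *OX* libraries that did not overlap and differences under the threshold. POPTR_0013s14030 passed with a pseudocount of 0.1 (1.54) and by voom (1.69), since a low gene is held down by the pseudocount of 1. POPTR_0016s09180, a cytokinin gene of the same kind, was below the filter and had 27 reads in all *OX*-H and 3 reads in all *OX* libraries.

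Ascorbate in the antisense line offers a second treatment of a transgenic line that shares no library with this one. The agents, the lines and the doses differ, and the values are set side by side for that reason. In *anti-3*-A relative to *anti-3* cells 1980 of the same 23037 genes were DEGs (8.59%), 651 raised (2.83%) and 1329 lowered (5.77%). Across genes, which are not independent replicates, the log2 fold changes of peroxide and of ascorbate had a Pearson correlation of 0.81 and a Spearman correlation of 0.74. Both treatments lowered 890 genes, which are 69.7% of those lowered by peroxide and 67.0% of those lowered by ascorbate, and both raised 275, which are 37.6% and 42.2% of their lists. A count of 0 genes was lowered by peroxide and raised by ascorbate (limma and voom), with 2 of the peroxide-lowered genes higher after ascorbate at an unadjusted p below 0.05. The 4 genes raised by peroxide and lowered by ascorbate were POPTR_0013s14410 (log2 fold changes 2.34 and −2.01), POPTR_0005s01860 (1.96 and −1.79), POPTR_0011s12730 (1.72 and −2.33) and POPTR_0005s26220 (1.72 and −1.54), with no annotation in the sources used here.

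**Figure D5:**
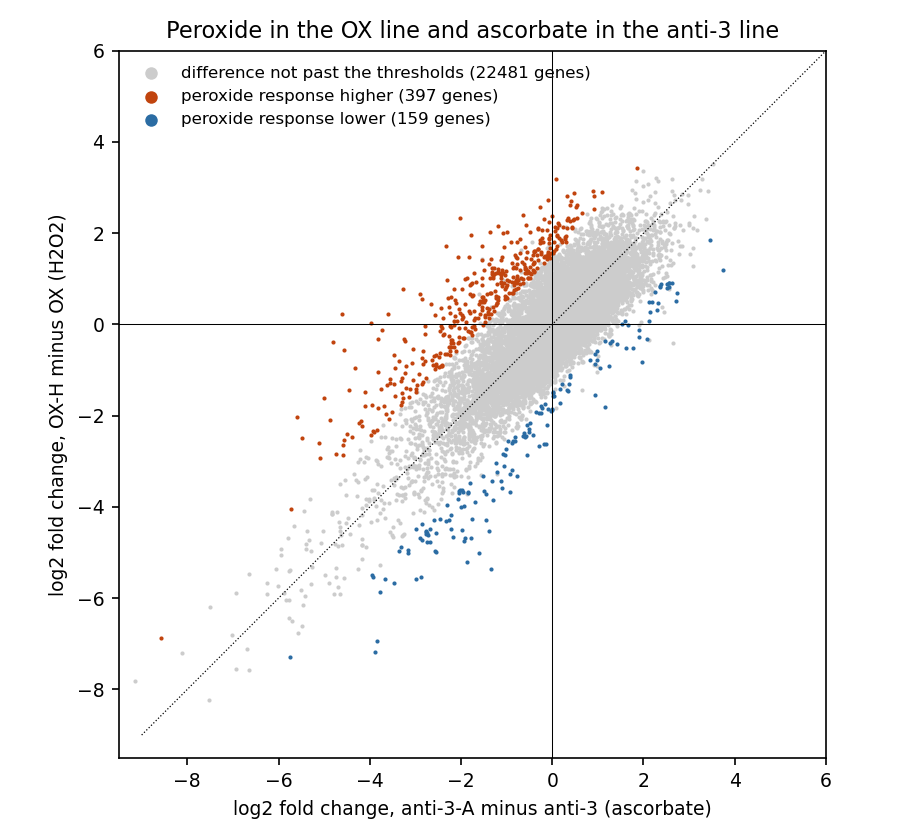
Log2 fold change of each of the 23037 genes after peroxide in the overexpression line (*OX*-H minus *OX*, vertical axis) against that after ascorbate in the antisense line (*anti-3*-A minus *anti-3*, horizontal axis), both on log2(FPKM + 1). The dotted line marks equal responses. Orange points are the 397 genes with a higher and blue points the 159 genes with a lower response to peroxide, and the upper left and lower right corners are nearly empty.

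The difference between the responses passed the same thresholds in 556 genes (2.41% of genes tested), 397 with a higher (1.72%) and 159 with a lower (0.69%) response to peroxide. Smaller differences leaned the other way, with 4032 genes higher (17.5%) and 8716 lower (37.8%) at an unadjusted p below 0.05, and 1441 higher and 2270 lower where a fold change above 1.5 replaced the log2 threshold. Of the peroxide DEGs, 239 were among them, and 151 of the 556 were genes that ascorbate lowered while peroxide did not change them past the thresholds. Genes that only peroxide lowered and for which the difference passed numbered 54, and genes that only peroxide raised numbered 89.

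Among all genes tested, 1.72% had a higher and 0.69% a lower response to peroxide past the thresholds, the scale for the counts here. Glutathione transferases had a lower response to peroxide than to ascorbate in 6 of 19 members. POPTR_0256s00210 differed by −1.26 (SE 0.15) and did not reach the fold change threshold. Xyloglucan transferases leaned the other way, with a higher response to peroxide in 6 of 15. POPTR_0006s07060 was raised in the *OX* line and had 17.9, 14.2 and 19.0 FPKM in *anti-3*-A cells, against 8.64, 11.9 and 16.2 FPKM in *anti-3* cells, and the responses differed by 2.42 (SE 0.29, limma adjusted p = 8.5e-06). POPTR_0013s14860 differed by 1.62 (SE 0.11, limma adjusted p = 1.9e-08). Trehalose synthesis differed in 2 of 6 genes, POPTR_0012s14700 by −1.81 (SE 0.12) and POPTR_0015s14810 by −1.63 (SE 0.16). Of the peroxidases tested, 4 had a higher and 2 a lower response to peroxide. The lowered POPTR_0466s00200 differed by −2.12 (SE 0.20, limma adjusted p = 7.5e-07) and POPTR_0466s00210 by −1.72 (SE 0.23, limma adjusted p = 2.1e-05).

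Anion transporters and ubiquitin transferases had higher responses to peroxide in several members, next to 1.72% of all genes tested. In sulfate transport the difference passed in 3 of 7 genes (6 by voom), POPTR_0017s07510 (2.03), POPTR_0007s03520 (1.78) and POPTR_0017s07270 (1.73), which ascorbate changed by −1.34, −2.05 and −1.18 and peroxide by 0.69, −0.26 and 0.54. The same 3 were the ones that passed among the 5 dicarboxylate transport genes, all of which are in the sulfate list too, and by voom all 5 passed. Ubiquitin transferases had a higher response to peroxide in 4 of 20 members, POPTR_0018s10710 (2.93), POPTR_0008s17590 (1.96), POPTR_0001s41200 (1.87) and POPTR_0017s02470 (1.80). These genes were named after their values were seen.

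The lists of DNA replication, auxin response, photosynthesis and chaperones had at most 1 difference each that passed by limma, next to 2.41% of all genes. In DNA replication 1 of 10 members was raised by peroxide and 10 of 10 by ascorbate. The difference passed in 1 by limma and in 3 by voom, and its values ran from −1.52 to −0.56. All 10 had a lower response to peroxide at an unadjusted p below 0.05, next to 37.8% of all genes. Members named on the *anti-3* sheets were chosen on *anti-3* libraries, so that the ascorbate count and the differences are not independent of that choice. Auxin-response genes had 10 of 14 raised by peroxide and 12 of 14 by ascorbate, and 0 differences passed the thresholds by limma and 1 by voom, with 2 higher and 9 lower after peroxide at an unadjusted p below 0.05, next to 17.5% and 37.8% of all genes. For POPTR_0013s03860 the difference was −0.29 (SE 0.08). Photosynthesis genes had 7 of 10 raised by peroxide and 1 of 10 by ascorbate, and the difference passed in 0 by limma or voom, although 8 were higher after peroxide at an unadjusted p below 0.05, next to 17.5% of all genes, and the values ran from 0.33 to 1.47. It was 1.44 (SE 0.26, limma adjusted p = 3.1e-04) in POPTR_0010s22790 and 1.20 (SE 0.30, limma adjusted p = 0.0036) in POPTR_0007s12070. Among heat-response and chaperone genes, 22 of 32 were lowered by peroxide and 25 by ascorbate, and the difference passed in 1 by limma and 2 by voom. At an unadjusted p below 0.05, 8 were higher and 17 lower after peroxide, next to 17.5% and 37.8% of all genes.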

How the data were processed

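RNA-seq libraries of 5 groups of suspension cells (*OX*-H, *OX*, *anti-3*-A, *anti-3* and WT, 3 each) were used, and each library was mapped to its group by its sample labels. The authors deposited FPKM per gene, fragments scaled by gene length and by the library's mapped total. The study describes TRIzol RNA and mapping to the *Populus trichocarpa* genome with SOAPaligner, whereas the labels name a column kit and the submitters' processing notes list Bowtie2 2.2.3, TopHat2 2.0.12, TopHat and HTSeq 0.6.1. Not given in the sources used here are the genome release and annotation, and whether counting used strand or reads that map to several genes. The 4 deposited tables of the authors' own comparisons with WT (counts, fold changes and p-values) were not used.

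FPKM does not keep the depth, so whole reads were worked back from the steps between low values, and all 445124 values examined came out whole within 0.0001 reads. On simulated libraries the totals were recovered in 15 of 15. Intervals from depth cover counting error only. Replicates differed beyond counting noise, with a chi-square per degree of freedom of 2.49 to 3.01 between *OX*-H and 3.42 to 6.07 between *OX* libraries (genes with 20 or more reads in both libraries together), so all libraries entered as separate samples.

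All 15 libraries entered 1 limma-trend fit (limma 3.58.1, R 4.3.3) on log2(FPKM + 1), with a coefficient for each group, and a filter that kept a gene when 3 of the 6 *OX*-H and *OX* libraries reached an FPKM of 1. A fold change on this scale understates the change of low genes. The contrasts were *OX*-H minus *OX* and its difference from *anti-3*-A minus *anti-3*, both two-sided, with Benjamini-Hochberg adjustment over all genes tested and thresholds of 0.001 and of 1.5 on the log2 scale. On simulated data for *OX*-H against *OX* (23240 genes), 98 of 100 genes changed by 2 and 100 of 100 changed by 3 on the log2 scale were called, with 0 of the unchanged genes called. The changed genes all had a mean of at least 5 FPKM, and all genes were given the same dispersion. Recovery of lower or more variable genes was thus not tested. Python 3.11.15 with numpy 2.4.6, pandas 2.3.3, scipy 1.17.1 and matplotlib 3.10.9 was used for tables and figures.

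Members and gene lists were chosen with earlier results of these data known. The lists came from the Gene Ontology columns of the study's supplementary annotation. Genes named in the text were the 15 the study names, the 2 largest rises and falls of all genes, up to 2 raised and 2 lowered members of each list with the largest change and libraries that did not overlap (*anti-3*-sheet members first), and the 2 largest differences from ascorbate in each direction. Others are said to have been named after their values were seen. Alternatives were pseudocounts of 0.1 and 0.5, no filter, an FPKM minimum of 5, aligned medians, quantile normalization, only the 6 libraries, no trend, a replicate block, an adjusted p of 0.05, a fold change (not log2) of 1.5, voom on the reads and leaving out each library. A removed length trend and thinning to equal depth were added after seeing the data.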

Additional observations from a re-analysis of the deposited data

Results flagged for a closer look

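Genes were singled out where the responses to peroxide in the *OX* line and to ascorbate in the *anti-3* line differed most. The difference itself was tested in the limma fit over all libraries, and the agents, doses and lines all differ, so that none of these can be told apart.

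In both genes with the largest differences below 0, peroxide lowered the transcript. Ascorbate lowered POPTR_0001s30970 as well (log2 fold change −1.61), whereas POPTR_0006s04060 did not pass the fold change threshold after ascorbate (−1.33). POPTR_0006s04060, which carries no annotation here, had 8.47, 9 and 9.73 FPKM in *OX*-H cells, against 416, 404 and 414 FPKM in *OX* cells. It had 302, 259 and 278 FPKM in *anti-3*-A cells, against 688, 695 and 732 FPKM in *anti-3* cells, and the responses differed by −4.02 (SE 0.11, limma adjusted p = 4.5e-12). *OX*-H cells were far below the WT mean of 228 FPKM, whereas *anti-3*-A cells were above it. POPTR_0001s30970, listed as a quercetin 7-O-glucosyltransferase, had 4.4, 5.4 and 6.06 FPKM in *OX*-H cells, against 206, 203 and 194 FPKM in *OX* cells. In *anti-3*-A cells it had 75.6, 62.1 and 64.5 FPKM, against 207, 196 and 221 FPKM in *anti-3* cells, and the responses differed by −3.40 (SE 0.14, limma adjusted p = 1.4e-10).

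In both genes with the largest differences above 0, ascorbate lowered the transcript and peroxide did not change it past the thresholds. POPTR_0002s00350, with no annotation here, had 228, 240 and 249 FPKM in *OX*-H cells, against 196, 219 and 197 FPKM in *OX* cells. It had 4.13, 3.6 and 4.93 FPKM in *anti-3*-A cells, against 116, 121 and 141 FPKM in *anti-3* cells, and the responses differed by 4.84 (SE 0.17, limma adjusted p = 3.1e-11). POPTR_0005s28110, listed under calcium ion binding, had 136, 139 and 145 FPKM in *OX*-H cells, against 172, 180 and 200 FPKM in *OX* cells. It had 4.35, 3.04 and 3.81 FPKM in *anti-3*-A cells, against 118, 123 and 152 FPKM in *anti-3* cells, and the responses differed by 4.41 (SE 0.14, limma adjusted p = 1.3e-11). The WT means of the pair were 8.05 and 4.82 FPKM, near *anti-3*-A and far below *OX*-H cells.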

How the results depend on the processing

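Between *OX*-H and *OX* 2009 genes were DEGs, 732 raised and 1277 lowered, and 556 differed from the ascorbate response, 397 higher and 159 lower. A fold change above 1.5 (not log2) gave 9226 DEGs, 5249 raised and 3977 lowered, and 3711 that differed, 1441 higher and 2270 lower. Voom gave 3121 DEGs, with 1398 raised and 260 lower than under ascorbate, and a pseudocount of 0.1 gave 1273 raised and 264 lower. Raised genes were 36.4% of DEGs, 43.0% with a pseudocount of 0.1, 44.8% by voom and 28.8% with the length trend removed, the median change being 0.22 in genes of up to 829 bp and 0.04 in genes of 2202 bp or more. Leaving out a replicate gave 1918 to 2098 DEGs, 674 to 801 raised, 1244 to 1312 lowered, and 549 to 564 that differed, 391 to 404 higher and 155 to 168 lower. The labels number replicates, but deviations of same-numbered *OX*-H and *OX* libraries correlated at −0.003, 0.057 and −0.002, so that no shared replicate effect was seen. Such correlations cannot show whether same-numbered libraries came from the same culture. A replicate block gave 2010 DEGs and 554 that differed. Of 1611 values of 77 named genes under 20 settings, 1597 kept their direction and side of the threshold, 3 (all of POPTR_0001s05400) lost the call, 11 gained one and 0 reversed. With only the 6 libraries, differences from ascorbate could not be fitted. Depth limits genes near 1 FPKM, where a pseudocount of 1 shrinks the change.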

Other observations

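POPTR_0007s00760, the quercetin glucosyltransferase that fell deeply after peroxide, fell less after ascorbate. It had 78.9, 57.7 and 61.1 FPKM in *anti-3*-A cells, against 258, 235 and 232 FPKM in *anti-3* cells, and the responses differed by −3.34.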
